A study of Homo sapiens with 9 samples.

Results

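The genes described here encode the proteins of the cytosolic ribosome. They were chosen by name, as every gene whose symbol is RPL or RPS followed by a number (with an optional A, X, Y or L and a further number), together with RPSA, RPLP0, RPLP1 and RPLP2. This rule used no measured value and took 86 of the 38021 genes in the table, 52 of the large subunit and 34 of the small subunit. The cells were 786-O, an established human line from a renal carcinoma of the clear cell type, in which loss of VHL leaves HIF2α stable at normal oxygen. They were infected with lentivirus carrying a pLKO.1 short hairpin RNA (shRNA) and selected in puromycin. The hairpin was a control in shControl (genotype labelled WT), targeted ARNT in shARNT (labelled ARNT knockdown) or targeted BMAL1 in shBMAL1 (labelled BMAL1 knockdown). ARNT and BMAL1 are bHLH-PAS proteins that can pair with HIF2α, and the series asked what each contributes to expression driven by HIF2α. A group was made up of 3 biological replicates by label, all with a single hairpin sequence, so effects of a target and of its hairpin cannot be told apart. Nothing in the labels said whether the replicates came from separate infections, so p values measure the spread between these libraries only.

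The cytosolic ribosome is built of a large and a small subunit, each a core of ribosomal RNA covered by proteins that the cell makes in matched amounts. Messengers of these proteins typically begin with a cytosine and a run of pyrimidines, the 5′ terminal oligopyrimidine (TOP) motif, through which mTOR signalling and LARP1 control their translation and stability. Several ribosomal proteins have a paralogue encoded elsewhere in the genome, some of which are confined to testis or muscle, and most have many processed pseudogenes that are near copies of the messenger. Ribosomal proteins made in excess are degraded, and RPL5 and RPL11 in complex with 5S RNA can restrain MDM2 and so stabilise p53. Mutations of many ribosomal protein genes cause Diamond-Blackfan anaemia.

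The start of the messenger sets the main genes apart from some of their paralogues, so starts are shown for several of these genes and pairs. Each sequence holds 10 bases before and 20 bases from the annotated start in RefSeq (GRCh38.p14), 5′ to 3′, and the capitals mark an unbroken run of C and T that begins with C at the start.
RPS6 (chr9:19380217-19380246, minus strand): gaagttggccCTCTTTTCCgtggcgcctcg
RPL10 (chrX:154398367-154398396, plus strand): ggaggagcgcCTCTTTCCCTTCggtgtggt
RPLP0 (chr12:120201092-120201121, minus strand): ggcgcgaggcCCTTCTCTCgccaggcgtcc
RPL22 (chr1:6199576-6199605, minus strand): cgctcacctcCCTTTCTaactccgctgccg
RPL22L1 (chr3:170870176-170870205, minus strand): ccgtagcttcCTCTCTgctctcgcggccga
RPL26 (chr17:8383174-8383203, minus strand): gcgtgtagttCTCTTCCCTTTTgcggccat
RPL26L1 (chr5:172958719-172958748, plus strand): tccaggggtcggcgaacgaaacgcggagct
RPS27 (chr1:153990752-153990781, plus strand): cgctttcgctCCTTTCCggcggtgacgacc
RPS27L (chr15:63157458-63157487, minus strand): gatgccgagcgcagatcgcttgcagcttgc
RPL7L1 (chr6:42879606-42879635, plus strand): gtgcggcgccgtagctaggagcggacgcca
RPL26 and RPS27 begin with pyrimidine runs of 12 and 7 bases, whereas their paralogues RPL26L1 and RPS27L, and RPL7L1, begin with none. RPL22 and its paralogue RPL22L1 both begin with a run, of 7 and 6 bases.

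A RefSeq window of 250 bases before to 50 after the start was matched for 69 of the 86 genes. A start with C followed by 4 bases of C or T was found in 48 of these 69 genes (69.6%), against 5.14% of 27305 genes with a window and 8.82% of 68 genes of the mitochondrial ribosome. The share was 69.0% of 42 large subunit genes and 70.4% of 27 small subunit genes. The windows were also searched on both strands for CACGTG, the E-box that BMAL1 binds with CLOCK, and for ACGTG, and likewise for GCGTG, which are core letters of hypoxia response elements. Each CACGTG holds the shorter 5-letter core too. The E-box occurred in 7.25% of the ribosomal protein windows, 13.2% of those of the mitochondrial ribosome and 8.77% of all windows. For ACGTG these shares were 31.9%, 35.3% and 24.9%, and for GCGTG 56.5%, 57.4% and 40.6%, so neither core was more frequent than in the genes of the mitochondrial ribosome. A match of letters is a description and not a binding site. Where a gene had several windows, a match in any of them was counted.

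Library totals ran from 33793043 to 35444731 reads. No library was a copy of another, since even replicates differed beyond counting noise (chi-square per degree of freedom 7.60 to 17.6). In reads per 1000000 reads (RPM), ARNT was at 67.0 ± 4.53, 35.5 ± 0.716 and 58.8 ± 1.96 in shControl, shARNT and shBMAL1, and BMAL1 (listed as ARNTL) at 21.7 ± 0.802, 18.4 ± 1.69 and 9.51 ± 0.808 (SD, n = 3), so each target was lowest in its own knockdown. Genes listed as markers of the line, which were the renal factors PAX8 and PAX2, the keratins KRT8 and KRT18, the mesenchymal gene VIM, and MET, EPAS1 and NNMT, had at least 15.6 RPM in every library. Their levels were not constant, with PAX8 at 285 ± 17.9, 291 ± 6.58 and 209 ± 8.10 RPM and NNMT at 124 ± 7.07, 154 ± 5.64 and 216 ± 18.6 in shControl, shARNT and shBMAL1 (SD, n = 3). Across libraries the leukocyte gene PTPRC had 0 to 3 reads, the endothelial gene PECAM1 2 to 9 and the hepatocyte gene ALB 0 to 6. COL1A1, a fibroblast gene, had 106 to 165 reads per library. The share of reads from the mitochondrial genome moved with both knockdowns, from 6.25% ± 0.859 with the control hairpin to 8.11% ± 0.605 with shARNT and 9.40% ± 0.540 with shBMAL1 (SD, n = 3). Fewer cells in a given state and less RNA per cell cannot be told apart in these bulk samples.

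The 86 genes together took 2.32% ± 0.0517 of all reads with the control hairpin, 2.08% ± 0.0293 with shARNT and 2.30% ± 0.0642 with shBMAL1 (SD, n = 3). Genes of the large subunit gave 13299.7, 13761 and 13963 RPM in the shControl libraries, 12251, 12029.8 and 12184 in shARNT and 13772, 13284 and 13246 in shBMAL1. All shARNT libraries lay below all others, and shBMAL1 overlapped shControl. Genes of the small subunit gave 9391, 9585 and 9748 RPM in shControl, 8462, 8473 and 8898 in shARNT and 9971, 9341 and 9391 in shBMAL1. The order was the same as for the large subunit, with the shARNT libraries below every other library. The ratio of large to small subunit reads was 1.43 ± 0.0104, 1.41 ± 0.0398 and 1.40 ± 0.0211 in shControl, shARNT and shBMAL1 (SD, n = 3), so the group means differed by no more than the spread within shARNT. With the mitochondrial reads taken out of the library totals, the large subunit gave 14589 ± 488, 13228 ± 178 and 14826 ± 235 RPM and the small subunit 10215 ± 283, 9372 ± 332 and 10559 ± 323 (SD, n = 3). All shARNT libraries stayed below all others on that scale too.

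**Figure D1:**
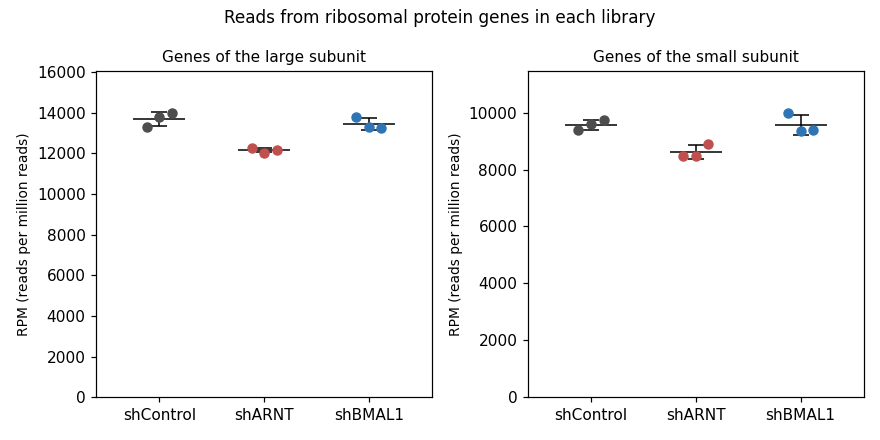
RPM from the 52 large subunit genes (left) and the 34 small subunit genes (right) in each of the 9 libraries, with the mean (line) and SD (bars) of each group. The shARNT libraries lie below all others in both panels, and the shBMAL1 and shControl libraries overlap.

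Levels of single genes were compared per kilobase of coding sequence. In shControl the median level was 475 RPM per coding kilobase over 46 large subunit genes and 371 over 31 small subunit genes, paralogues and the Y-linked RPS4Y1 and RPS4Y2 left out. The range ran from 2.82 to 2174 in the large subunit and from 5.58 to 2112 in the small subunit, although the proteins are needed in nearly equal amounts. The highest levels, chosen after the values were seen, were those of RPL8 at 2174 ± 61.2, RPS24 at 2112 ± 44.3 and RPL30 at 2001 ± 239.9 (SD, n = 3). The SDs of these 3 genes overlapped in shControl. The lowest were RPL21 at 2.82 ± 0.253, RPL9 at 5.15 ± 0.619 and RPS28 at 5.58 ± 1.75 (SD, n = 3), also chosen after the values were seen. RPL9 and RPS28 overlapped within their SDs.

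To see how far a level follows sequence shared with other genes, the coding sequence of each gene was split into all words of 50 bases, and the percent of words also found in annotated transcripts of other genes, pseudogenes included, was counted. All of the words of RPL21, RPS28, RPL36A, RPL39, RPS26 and RPS27 and 90.5% of those of RPL9 occurred in other genes, and these genes had between 2.82 and 68.1 RPM per coding kilobase in shControl. RPL8, with 4.57% of its words shared, had 2174. The median level in shControl was 111 over the 23 genes with at least 80% of words shared, 417 over the 35 genes with 20% to under 80%, and 859 over the 19 genes with under 20%. Over 81 genes, paralogues with reads included, the shared percent and the log2 level were correlated with r = −0.60 (Pearson) and rho = −0.64 (Spearman). This is a description across genes of the same libraries, which are not independent replicates. Whether counting discarded or divided reads that fit several places was not given in the sources used here, so the levels of genes with many near copies are uncertain. Log2 fold changes of shARNT against shControl had r = −0.01 and rho = −0.04 with the shared percent over the same 81 genes. With the GC percent of the coding sequence they had r = −0.29 and rho = −0.30. With the log2 level in shControl they had r = −0.28 and rho = −0.27, and with log2 coding length r = −0.12 and rho = −0.10. None of these relations was tested. Of 23 tested genes with at least 80% of words shared 10 were lower in shARNT than in shControl, as were 10 of 21 with under 20%, against 19.0% of all genes tested.

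**Figure D2:**
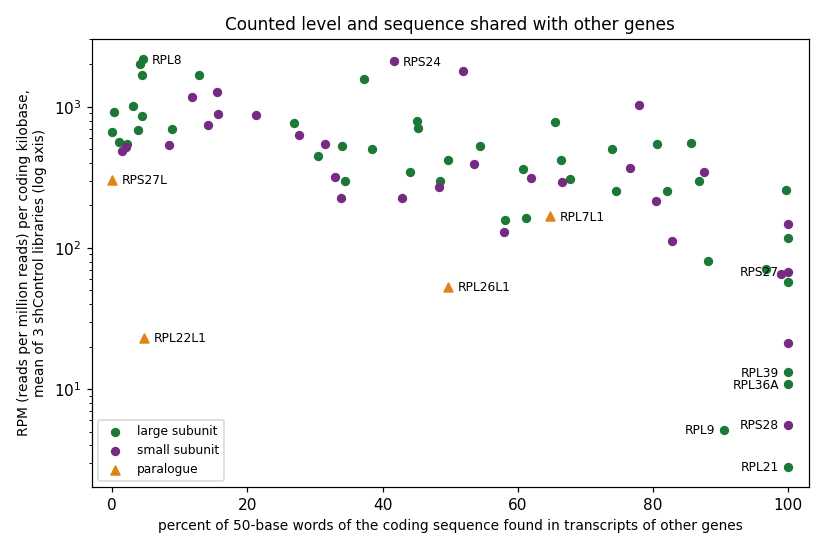
Level in shControl (mean of 3 libraries, RPM per coding kilobase, log axis) against the percent of 50-base words of the coding sequence that occur in transcripts of other genes, for large subunit genes, small subunit genes and the paralogues with reads (79 of the 81 genes are drawn). Levels run from 2.82 for RPL21, all of whose words are shared, to 2174 for RPL8.

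With ARNT depleted, ribosomal protein genes of both subunits were lower, by small amounts. Of 82 genes tested by DESeq2 against shControl, 40 were lower, 1 was higher and 41 were not called at an adjusted p under 0.1. Over all 15164 genes tested, 19.0% were lower and 16.5% were higher. The median log2 fold change of the ribosomal protein genes was −0.17, a median change of −11.1%, against 0.0028 over all genes tested, and 72 of the 82 values were below 0. The 41 called genes all changed by less than 1.5-fold. In the large subunit 22 of 49 tested genes were lower and 1 was higher, with a median log2 fold change of −0.19. In the small subunit 18 of 33 were lower and 15 were not called, with a median of −0.17. Without the paralogues and the Y-linked genes, values ran up to 0.08 in the large subunit and from −0.36 to 0.16 in the small subunit. From RNA sequencing of 786-O cells with these hairpins, the study had already reported ribosome pathways as enriched among its ARNT-specific target genes.

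Within the large subunit, RPL10 (chrX:153618315-153637504, plus strand, GRCh37), which joins the subunit late in its assembly and is needed for it to become active, had 12407, 12275 and 12949 normalised counts in shControl and 8897, 9895 and 9730.5 in shARNT (log2 fold change −0.40, SE 0.05, adjusted p 6.89e-12). Its highest shARNT library was below its lowest shControl library. RPL13 had 8545, 8945 and 10552 normalised counts in shControl and 7721, 7053 and 6812 in shARNT (log2 fold change −0.37, SE 0.07, adjusted p 4.19e-06). RPL31, which sits near the exit of the peptide tunnel, had 7135, 6407 and 7335 in shControl and 5023, 5464 and 5922 in shARNT (log2 fold change −0.34, SE 0.07, adjusted p 6.54e-06). For both genes every shARNT library was below every shControl library.

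Within the small subunit, RPS15, a protein of the head of the subunit, had 4099, 4671 and 5501 normalised counts in shControl and 3942, 3513 and 3678 in shARNT (log2 fold change −0.36, SE 0.08, adjusted p 0.000235). RPS19, the gene most often mutated in Diamond-Blackfan anaemia, had 8079.8, 6828 and 9052 in shControl and 6635, 5759.5 and 6395 in shARNT (log2 fold change −0.35, SE 0.08, adjusted p 0.000211). Neither gene overlapped between the groups. Both calls were lost without shARNT replicate 3, with RPS15 at −0.35 (adjusted p 0.142) and RPS19 at −0.36 (adjusted p 0.109), nearly the same log2 fold changes, and leaving out shControl replicate 1 gave −0.34 (adjusted p 0.138) for RPS19. RPS16, which lies near the decoding site, had 13843, 13274 and 14142 normalised counts in shControl and 12102, 12095 and 12889 in shARNT (log2 fold change −0.15, SE 0.05, adjusted p 0.0119). The groups did not overlap, and adjusting the libraries for GC content gave −0.09 (adjusted p 0.161). RPS6, the substrate of S6 kinase, had 33965, 32384 and 33674 in shControl and 30603, 32711 and 29263 in shARNT (log2 fold change −0.11, SE 0.05, adjusted p 0.0997). Its groups overlapped, the value lay at the threshold, and leaving out shARNT replicate 3 gave −0.07 (adjusted p 0.404), shControl replicate 1 −0.10 (adjusted p 0.279), shControl replicate 3 −0.10 (adjusted p 0.224) and shARNT replicate 1 −0.10 (adjusted p 0.216). The call was also lost with edgeR (adjusted p 0.128), the count filter (0.125), the length correction (0.108) and 1 fit of 9 libraries (0.17).

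The 1 gene that was higher in shARNT was the paralogue RPL26L1. It had 789.9, 881 and 757 normalised counts in shControl and 997, 982 and 963 in shARNT (log2 fold change 0.28, SE 0.09, adjusted p 0.00665). All shARNT libraries were above all shControl libraries, and the gene stayed called, as higher, in each of the 14 alternative fits of this comparison. Of the 40 genes that were lower, 22 stayed called in every one of the 6 fits that left out a library. The share that stayed called over all genes is not given.

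**Figure D3:**
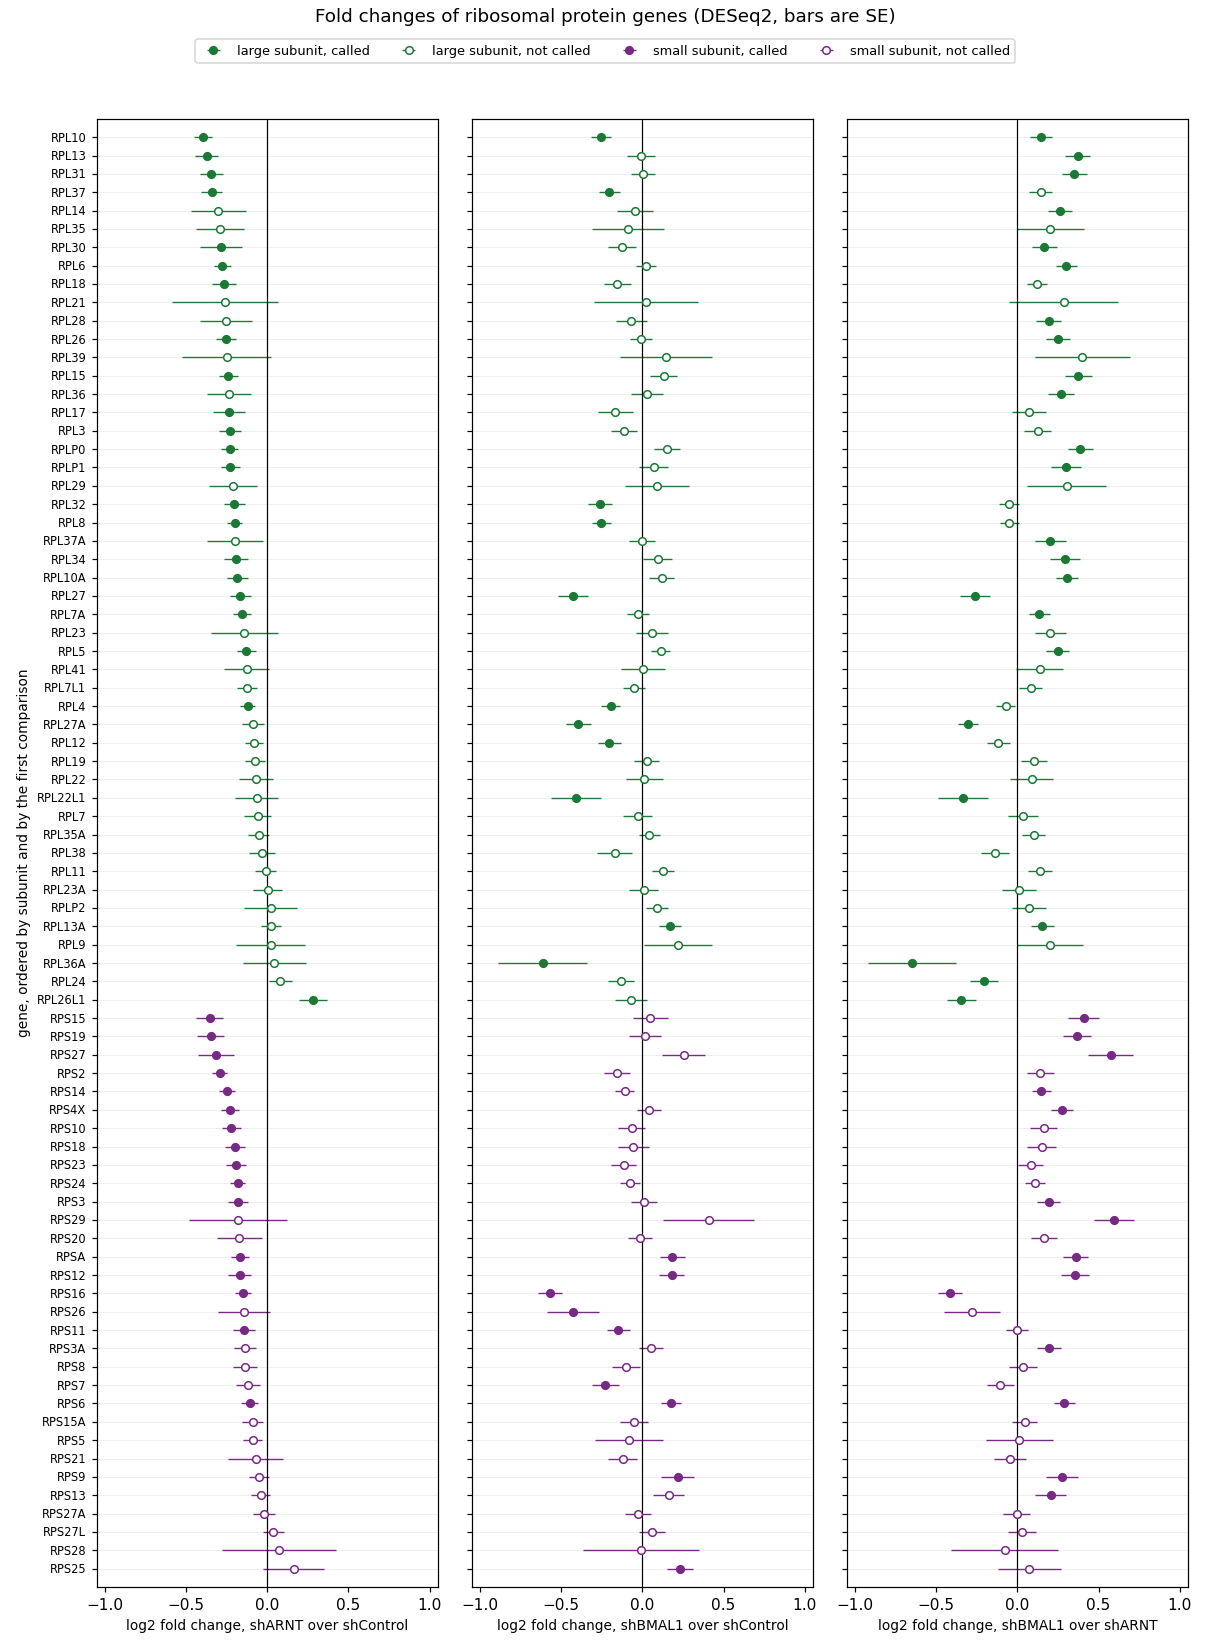
DESeq2 log2 fold changes with SE for 79 of 81 ribosomal protein genes in the 3 comparisons, ordered by subunit and by the first comparison. Filled points are called at an adjusted p under 0.1. In the first panel most points of both subunits lie below 0 and RPL26L1 lies above it, in the second panel points fall on both sides, with RPL36A and RPS16 farthest below 0, and in the third panel most lie above 0.

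With BMAL1 depleted, most ribosomal protein genes were not called. Of 83 genes tested against shControl, 62 were not called, 15 were lower (18.1%) and 6 were higher (7.23%). Over all 19036 genes tested, 19.4% were lower and 17.4% were higher, so the share of ribosomal protein genes called lower was near that of all genes and the share called higher was below it. The median log2 fold change was −0.01, against 0.02 over all genes tested. In the large subunit 10 of 49 tested genes were lower and 1 was higher, and in the small subunit 5 of 34 were lower and 5 were higher. The number of higher genes was 12 without shBMAL1 replicate 3, 2 without shControl replicate 1 and 3 without shControl replicate 2, and it was 11 once libraries were adjusted for GC content. The number of lower genes was 24 with a correction for transcript length. Of the 15 lower genes 8 stayed called in every one of the 6 fits that left out a library, and of the 6 higher genes 0 did. For all genes, shares called in these alternative fits are not given.

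RPS16 was the gene with the smallest adjusted p among those lowered. It had 13843, 13274 and 14142 normalised counts in shControl and 10135, 8471 and 9236 in shBMAL1 (log2 fold change −0.57, SE 0.07, adjusted p 1.05e-13). Every shBMAL1 library was below every shControl library. RPL27, a large subunit protein of the solvent side, had 11418, 12912 and 12569 in shControl and 10650.4, 8930.1 and 7884 in shBMAL1 (log2 fold change −0.43, SE 0.09, adjusted p 3.11e-05). RPL27A, a separate large subunit protein despite its name, had 5769, 6053 and 5016 in shControl and 4442, 4113 and 4275 in shBMAL1 (log2 fold change −0.39, SE 0.08, adjusted p 4.68e-06). Neither gene overlapped between the groups. The paralogue RPL22L1 had 306, 272 and 310.3 normalised counts in shControl and 253, 229 and 189 in shBMAL1 (log2 fold change −0.41, SE 0.15, adjusted p 0.03). Its groups did not overlap, yet the call was lost without shBMAL1 replicate 3 at −0.30 (adjusted p 0.193), without shControl replicate 1 at −0.39 (adjusted p 0.115) and without shControl replicate 3 at −0.37 (adjusted p 0.135).

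Among the lowered genes with few reads, RPL36A had 117, 125 and 120.3 normalised counts in shControl and 104, 42.3 and 90.1 in shBMAL1 (log2 fold change −0.61, SE 0.28, adjusted p 0.0742). The value rests on shBMAL1 replicate 2, the lowest library, without which it was −0.31 (adjusted p 0.407), and the call was also lost without any of the shControl libraries (adjusted p 0.142 to 0.182). All words of RPL36A are shared with other genes. Its read-through row RPL36A-HNRNPH2, which shares its exons, had 263, 269.9 and 285 in shControl and 302, 318 and 305 in shBMAL1 (log2 fold change 0.18, SE 0.14, adjusted p 0.361). RPS26, another Diamond-Blackfan gene, had 281, 249 and 238 in shControl and 172, 201 and 199 in shBMAL1 (log2 fold change −0.43, SE 0.16, adjusted p 0.0246). Its groups did not overlap, and the call was lost without shBMAL1 replicate 1 at −0.36 (adjusted p 0.124) and without shControl replicate 1 at −0.36 (adjusted p 0.153).

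The 6 genes that were higher in shBMAL1 were RPS25, RPS9, RPSA, RPS12 and RPS6 of the small subunit and RPL13A of the large subunit. RPS6 had 33965, 32384 and 33674 normalised counts in shControl and 39623, 38276 and 35322 in shBMAL1 (log2 fold change 0.18, SE 0.06, adjusted p 0.0179). The groups did not overlap, and without shControl replicate 2 the value was 0.15 (adjusted p 0.112). RPS25, which helps the ribosome use internal entry sites, had 4043, 3881 and 3595 in shControl and 5022, 4253 and 4270.4 in shBMAL1 (log2 fold change 0.23, SE 0.08, adjusted p 0.0169). Its groups did not overlap either, and it was 0.15 (adjusted p 0.105) without shBMAL1 replicate 1 and 0.18 (adjusted p 0.13) without shControl replicate 3, and 0.23 (adjusted p 0.314) in 1 fit of 9 libraries. RPL13A, also known for its part in translational silencing after interferon, had 5291, 5249 and 5787 in shControl and 5851, 6466 and 6082 in shBMAL1 (log2 fold change 0.17, SE 0.07, adjusted p 0.0454). Without shBMAL1 replicate 2, shControl replicate 1 or shControl replicate 2 its values were 0.13 (adjusted p 0.203), 0.15 (adjusted p 0.193) and 0.14 (adjusted p 0.199).

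RPS9 had 6136, 6434 and 6917 normalised counts in shControl and 9139, 7036 and 6528 in shBMAL1 (log2 fold change 0.22, SE 0.10, adjusted p 0.0847), and its groups overlapped. Without shBMAL1 replicate 1, its highest library, it was 0.06 (adjusted p 0.578), and without shControl replicate 1 or 2 it was 0.18 (adjusted p 0.284) and 0.21 (adjusted p 0.188). With the length correction it was 0.18 (adjusted p 0.114). RPS12 had 3147, 3129 and 3187 in shControl and 3843, 3668 and 3227 in shBMAL1 (log2 fold change 0.18, SE 0.08, adjusted p 0.0578), with no overlap, and it lost its call without shBMAL1 replicate 1 or 2 (adjusted p 0.21 and 0.17) and without shControl replicate 1, 2 or 3 (0.156, 0.159 and 0.125), and with the length correction (0.165).

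The direct comparison set shBMAL1 against shARNT. Of 83 ribosomal protein genes tested, 7 were lower and 32 were higher in shBMAL1 than in shARNT, and 44 were not called. Over all 18181 genes tested, 18.0% were lower and 17.3% were higher. The median log2 difference (shBMAL1 over shARNT) was 0.14, against 0.0094 over all genes tested. In the large subunit 6 of 49 tested genes were lower and 19 were higher, and in the small subunit 1 of 34 was lower and 13 were higher. The number of lower genes was 4 without shARNT replicate 1, shARNT replicate 2, shBMAL1 replicate 2 or shBMAL1 replicate 3, and all-gene shares for these fits are not given. The shARNT libraries enter both this comparison and that with shControl, so the comparisons are not independent.

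Among the genes called higher in shBMAL1 than in shARNT, the zinc-binding small subunit proteins RPS29 and RPS27 had the largest log2 fold changes. RPS29 had 670.4, 566 and 796 normalised counts in shARNT and 910.5, 1139.8 and 1017 in shBMAL1 (log2 fold change 0.59, SE 0.12, adjusted p 1.49e-05). RPS27 had 541, 444 and 462 in shARNT and 877, 700.4 and 583 in shBMAL1 (log2 fold change 0.58, SE 0.14, adjusted p 0.000239). In both genes every shBMAL1 library was above every shARNT library. Against shControl neither was called in shBMAL1, with RPS27 at 0.26 (adjusted p 0.136). RPS29 was called as higher there with edgeR, at 0.41 (adjusted p 0.0312), and without shControl replicate 3, at 0.71 (adjusted p 2.27e-07). RPS27 was called as higher with the GC correction (adjusted p 0.0782), the count filter (0.0961) and edgeR (0.0822), and without shBMAL1 replicate 3, at 0.39 (adjusted p 0.0142). RPS29 had 647, 596 and 1063 in shControl, the widest spread in that group among the 79 members, Y-linked genes left out, whose mean normalised count was 50 or more (coefficient of variation 33.4%, against a median of 6.36%). RPS15 was higher in shBMAL1 by 0.41 (adjusted p 0.00012), RPL15 by 0.37 (adjusted p 6.8e-05) and RPL13 by 0.37 (adjusted p 1.49e-05) on the log2 scale.

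The genes that were lower in shBMAL1 than in shARNT included RPS16 at −0.41 (adjusted p 1.55e-07) and RPL27A at −0.30 (adjusted p 1.89e-05) on the log2 scale, neither of which overlapped between the groups. RPL26L1 had 997, 982 and 963 normalised counts in shARNT and 797, 737 and 784 in shBMAL1 (log2 fold change −0.34, SE 0.09, adjusted p 0.000759). These groups did not overlap either. RPL27 was at −0.26 (adjusted p 0.021), and without shARNT replicate 3 or shBMAL1 replicate 3 it was −0.23 (adjusted p 0.11) and −0.16 (adjusted p 0.171). Of the 7 lower genes, 3 stayed called in every one of the 6 fits that left out a library. RPL36A at −0.65 (adjusted p 0.054) and RPL22L1 at −0.34 (adjusted p 0.0843) did not. Without shBMAL1 replicate 2 RPL36A was −0.35 (adjusted p 0.322), and without shARNT replicate 1, 2 or 3 its adjusted p was 0.136, 0.156 and 0.133. RPL22L1 lost its call without shARNT replicate 1, 2 or 3 (adjusted p 0.121, 0.247 and 0.199) and without shBMAL1 replicate 2 or 3 (0.148 and 0.353).

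Members with known special roles were read out gene by gene. The acidic proteins RPLP0, RPLP1 and RPLP2 form the stalk of the large subunit that recruits elongation factors. RPLP0, to which the study normalised its quantitative PCR, had 25985, 27646 and 25159 normalised counts in shControl, 23165, 22235 and 21572 in shARNT and 33073, 27221 and 27294 in shBMAL1. It was lower in shARNT than in shControl (log2 fold change −0.23, SE 0.05, adjusted p 6.01e-05), not called in shBMAL1 against shControl (log2 fold change 0.15, SE 0.08, adjusted p 0.143), and higher in shBMAL1 than in shARNT (log2 fold change 0.39, SE 0.08, adjusted p 6.39e-06). Against shControl, RPLP0 was called as higher in shBMAL1 with the GC correction, at 0.18 (adjusted p 0.0154), in 1 fit of 9 libraries, at 0.15 (adjusted p 0.0957), without shBMAL1 replicate 2, at 0.20 (adjusted p 0.0663), and without shBMAL1 replicate 3, at 0.20 (adjusted p 0.0666). Every shARNT library was below every library of the other groups. RPLP1 had 18282, 18801 and 19664, 16597, 16965 and 14801 and 21090.3, 21961 and 16603 in the same order of groups. It was lower in shARNT (log2 fold change −0.23, SE 0.06, adjusted p 0.000607) and higher in shBMAL1 than in shARNT (log2 fold change 0.30, SE 0.09, adjusted p 0.00513), the second of which was 0.26 (adjusted p 0.263) without shBMAL1 replicate 1. In shBMAL1 against shControl RPLP1 was not called, but it was called as higher without shBMAL1 replicate 3, at 0.18 (adjusted p 0.0222). RPLP2 had 10525, 11101 and 12032, 10825, 9307 and 13919 and 11942, 11653 and 12245, with overlapping groups, and its log2 fold changes from shControl were 0.02 (adjusted p 0.95) in shARNT and 0.09 (adjusted p 0.344) in shBMAL1, the second of which was 0.15 (adjusted p 0.0466) with the GC correction.

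RPSA, a small subunit protein that is also known as the laminin receptor, had 10309.5, 10742 and 11383 normalised counts in shControl, 9385, 9270.2 and 10117 in shARNT and 12210.2, 13539.8 and 11179.8 in shBMAL1. It was lower in shARNT (log2 fold change −0.17, SE 0.06, adjusted p 0.0109) and higher in shBMAL1 (log2 fold change 0.19, SE 0.08, adjusted p 0.0478) than in shControl. Only the shARNT values were clear of the shControl range, and the call in shBMAL1 was lost without shBMAL1 replicate 2 at 0.11 (adjusted p 0.288), shControl replicate 1 at 0.15 (adjusted p 0.223) and shControl replicate 2 at 0.18 (adjusted p 0.136).

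RPL5 and RPL11 are the partners of 5S RNA. RPL5 had 15767, 15589 and 15501 normalised counts in shControl, 12893, 14812 and 15026 in shARNT and 17156, 17333 and 16264 in shBMAL1. It was lower in shARNT than in shControl (log2 fold change −0.13, SE 0.06, adjusted p 0.0835), a call that was lost without any 1 of shARNT replicate 1 and the 3 shControl libraries (adjusted p 0.406, 0.207, 0.167 and 0.141), with the count filter (0.101) and in 1 fit of 9 libraries (0.105), and it was higher in shBMAL1 than in shARNT (log2 fold change 0.25, SE 0.07, adjusted p 0.00252). Against shControl it was at 0.11 (adjusted p 0.124) in shBMAL1, and at 0.14 (adjusted p 0.0733) without shBMAL1 replicate 3. RPL11 had 17642, 20273 and 19394, 19856, 16980.0 and 19911 and 20231, 22123 and 20288 and was not called in any comparison, at −0.01 (adjusted p 0.934) in shARNT and 0.13 (adjusted p 0.165) in shBMAL1 against shControl. The second value passed the threshold with the GC correction, at 0.14 (adjusted p 0.0792), without shBMAL1 replicate 1, at 0.15 (adjusted p 0.0936), and without shControl replicate 2, at 0.17 (adjusted p 0.0948). Against shARNT, RPL11 was higher in shBMAL1 without shBMAL1 replicate 1, at 0.17 (adjusted p 0.0874). The difference between RPL5 and RPL11 was not tested.

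Further Diamond-Blackfan genes were RPS24 and RPL35A. RPS24 had 28181, 28847 and 29696 normalised counts in shControl and 24776, 25974 and 25545 in shARNT, without overlap (log2 fold change −0.18, SE 0.05, adjusted p 0.00045), and was at −0.08 (adjusted p 0.372) in shBMAL1, or −0.13 (adjusted p 0.0518) with the correction for transcript length. RPL35A was not called in either knockdown, at −0.05 (adjusted p 0.604) and 0.04 (adjusted p 0.681).

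Of the 7 paralogues with an L in their name, 3 were almost silent. RPL3L, known from striated muscle, had 0 to 3 reads per library, RPL10L, known from testis, 0 to 5 and RPL39L 0 to 2, and DESeq2 gave none of them an adjusted p. Their main genes RPL3, RPL10 and RPL39 had 788 ± 54.1, 557 ± 16.8 and 13.1 ± 1.31 RPM per coding kilobase in shControl (SD, n = 3). RPL3, which lies close to the peptidyl transferase centre, was lower in shARNT (log2 fold change −0.23, SE 0.07, adjusted p 0.00331) and at −0.11 (adjusted p 0.324) in shBMAL1, or −0.18 (adjusted p 0.0941) without shBMAL1 replicate 3, and RPL39, a small protein of the peptide tunnel, was not called in either knockdown, at −0.25 (adjusted p 0.551) and 0.15 (adjusted p 0.763). The other 4 paralogues were expressed. RPS27L had 305 ± 8.32, RPL7L1 168 ± 4.29, RPL26L1 53.0 ± 3.88 and RPL22L1 23.1 ± 1.81 (SD, n = 3). Identity with the main protein, aligned over the annotated coding sequences, was 98.6% for RPL26L1, 96.4% for RPS27L, 95.3% for RPL10L, 92.2% for RPL39L, 76.7% for RPL3L, 70.3% for RPL22L1 and 42.2% for RPL7L1. RPL10L and RPL39L were thus close to their main proteins and almost without reads, while RPL7L1 was distant and well expressed.

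RPL26L1 (chr5:172385732-172396774, plus strand, GRCh37) and RPL26 (chr17:8280834-8286531, minus strand) encode nearly the same protein of the subunit's tunnel exit and moved in opposite directions in shARNT. RPL26 had 3877, 3868 and 3912 normalised counts in shControl and 3488, 3004 and 3264 in shARNT (log2 fold change −0.25, SE 0.06, adjusted p 0.000444), without overlap. Reads of RPL26L1 were 20.4, 22.8 and 19.4 percent of those of RPL26 in the shControl libraries, 28.6, 32.7 and 29.5 percent in shARNT and 19.4, 19.4 and 21.1 percent in shBMAL1. All shARNT libraries were above all others, and shBMAL1 overlapped shControl. The exact two-sided permutation p of shARNT against shControl was 0.1, the smallest that 3 against 3 libraries allow, and 0.3 after adjustment over 12 tests. Of the 50-base words of the coding sequences, 49.7% of RPL26L1 and 82.1% of RPL26 occur in other genes, so part of the reads of each is uncertain. RPL26, whose messenger begins with a pyrimidine run, fell and RPL26L1, which has none at its start, rose. RPL7L1 and RPS27L, which also have none, were not called in shARNT against shControl. Whether the start bears on the direction was not tested.

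RPS27L (chr15:63418071-63450220, minus strand), known as a target of p53, and RPS27 (chr1:153963238-153964631, plus strand) are also near-identical proteins. RPS27L had 2723, 2642 and 2730.5 normalised counts in shControl, 2911, 2604 and 2777 in shARNT and 2493, 2953 and 3006 in shBMAL1, and was not called in any comparison (adjusted p 0.648 to 0.868). RPS27 had 565, 635 and 607, 541, 444 and 462 and 877, 700.4 and 583. It was lower in shARNT than in shControl (log2 fold change −0.32, SE 0.11, adjusted p 0.0168), a call that was lost without shARNT replicate 2 at −0.26 (adjusted p 0.132), shARNT replicate 3 at −0.29 (adjusted p 0.1) and shControl replicate 2 at −0.28 (adjusted p 0.111). Reads of RPS27L were 481, 416 and 450.2 percent of those of RPS27 in shControl, 538, 587 and 601 percent in shARNT and 284, 422 and 516 percent in shBMAL1. Every shARNT library was above every other library (exact two-sided permutation p 0.1 against shControl, 0.3 adjusted over 12 tests). That RPS27L exceeded RPS27 is uncertain, because every word of RPS27 and none of RPS27L occurs in another gene.

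RPL22L1 (chr3:170582664-170587997, minus strand) and RPL22 (chr1:6245080-6269449, minus strand), an RNA-binding protein known to restrain expression of its paralogue, had a less clear balance. Reads of RPL22L1 were 33.0, 28.8 and 31.4 percent of those of RPL22 in shControl, 30.3, 38.4 and 26.7 percent in shARNT and 32.2, 22.7 and 17.3 percent in shBMAL1. The groups overlapped, and RPL22 itself was not called, at −0.07 (adjusted p 0.681) in shARNT and 0.01 (adjusted p 0.956) in shBMAL1. RPL7L1 (chr6:42847354-42857663, plus strand) stood at 58.1, 70.3 and 74.4 percent of RPL7 in shControl, 67.9, 65.9 and 59.0 percent in shARNT and 62.9, 63.0 and 73.5 percent in shBMAL1, also with overlap. RPL7L1 is less a copy of RPL7 than a factor of ribosome assembly, and its log2 fold changes from shControl were −0.13 (adjusted p 0.106) in shARNT and −0.05 (adjusted p 0.633) in shBMAL1. The first was called as lower with the GC correction (adjusted p 0.0763), TMM size factors (0.08) and edgeR (0.0874), without shARNT replicate 2 (0.0915) and without shControl replicate 1 (0.0986). The Y-linked genes RPS4Y1 and RPS4Y2 were counted among the small subunit genes, with no level given.

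**Figure D4:**
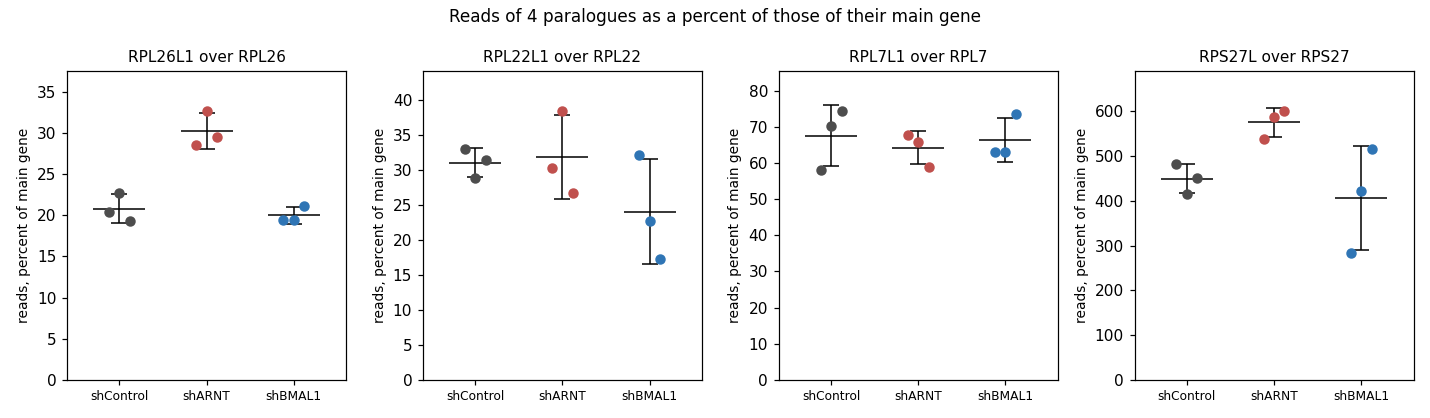
Reads of RPL26L1, RPL22L1, RPL7L1 and RPS27L as a percent of the reads of their main gene in each of the 9 libraries, with the mean (line) and SD (bars) of each group. For RPL26L1 and RPS27L the 3 shARNT libraries lie above all others, and for RPL22L1 and RPL7L1 the groups overlap.

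Genes with and without a pyrimidine start were also counted apart. In shARNT against shControl, 22 of 48 tested genes with such a start were lower and 26 were not called (median log2 fold change −0.17), and 10 of 19 without it were lower and 1 was higher (median −0.17), against 19.0% lower and 16.5% higher over all genes tested. In shBMAL1 against shControl, 7 of 48 with the start were lower and 6 were higher (median 0.0009), and 5 of 20 without it were lower and 15 were not called (median 0.0061), against 19.4% lower and 17.4% higher over all genes tested. In shBMAL1 against shARNT, 5 of 48 with the start were lower and 23 were higher (median 0.16), and 2 of 20 without it were lower and 6 were higher (median 0.09), against 18.0% lower and 17.3% higher over all genes tested. The medians of genes with and without the start were nearly equal in each knockdown against shControl and lay farther apart in the direct comparison, and the difference was not tested. RPL22L1, which has the start, was lower in shBMAL1 and not called in shARNT.

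Some proteins of the cytosolic ribosome lie outside the name rule. FAU, which encodes RPS30 as a fusion with a ubiquitin-like protein, was not called in any comparison (adjusted p 0.329 to 0.799). RACK1, a signalling scaffold on the small subunit, had 76320.3, 80558 and 73538 normalised counts in shControl, 65325, 65078 and 63740.0 in shARNT and 63375, 58391 and 62374 in shBMAL1. It was lower in shARNT (log2 fold change −0.24, SE 0.05, adjusted p 2.71e-06) and in shBMAL1 (log2 fold change −0.33, SE 0.06, adjusted p 1.72e-06) than in shControl, and neither group overlapped shControl. RPL36AL, the close copy of RPL36A, was at −0.23 (adjusted p 0.0555) in shARNT and −0.07 (adjusted p 0.699) in shBMAL1.

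The other genes of ribosome production were counted for contrast. Of 77 genes of the mitochondrial ribosome tested in shARNT against shControl, 1 was lower and 28 were higher (median log2 fold change 0.13), and of 89 ribosome assembly genes (such as nucleolar proteins and subunits of RNA polymerase I) 5 were lower and 24 were higher (median 0.06). Over all genes tested in that comparison 19.0% were lower and 16.5% higher, against 1.30% and 36.4% of the mitochondrial ribosome genes and 5.62% and 27.0% of the assembly genes. In shBMAL1 against shControl, 6 of the mitochondrial ribosome genes were lower and 20 were higher (median 0.05), and 27 of the assembly genes were lower and 7 were higher (median −0.09). Over all genes tested 19.4% were lower and 17.4% higher, against 7.79% lower of the mitochondrial ribosome genes and 30.3% lower and 7.87% higher of the assembly genes. In the direct comparison 16 and 2 of the mitochondrial ribosome genes were lower and higher in shBMAL1 (median −0.09), and 41 and 2 of the assembly genes (median −0.17). Of the mitochondrial ribosome genes 20.8% were lower, near the 18.0% of all genes, and of the assembly genes 46.1% were lower and 2.25% higher, against 17.3% higher over all genes. In shARNT against shControl and in the direct comparison, the median of the cytosolic genes lay on the other side of 0 from the medians of both lists, although 14 of the 77 mitochondrial ribosome genes and 32 of the 89 assembly genes were below 0 in shARNT, as were 72 of the 82 cytosolic genes. The difference between lists was not tested. RNA45S5, the row of the ribosomal RNA precursor, was at 1496 ± 137, 1372 ± 18.1 and 1593 ± 196 RPM in shControl, shARNT and shBMAL1 (SD, n = 3), from libraries made of polyadenylated RNA.

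**Figure D5:**
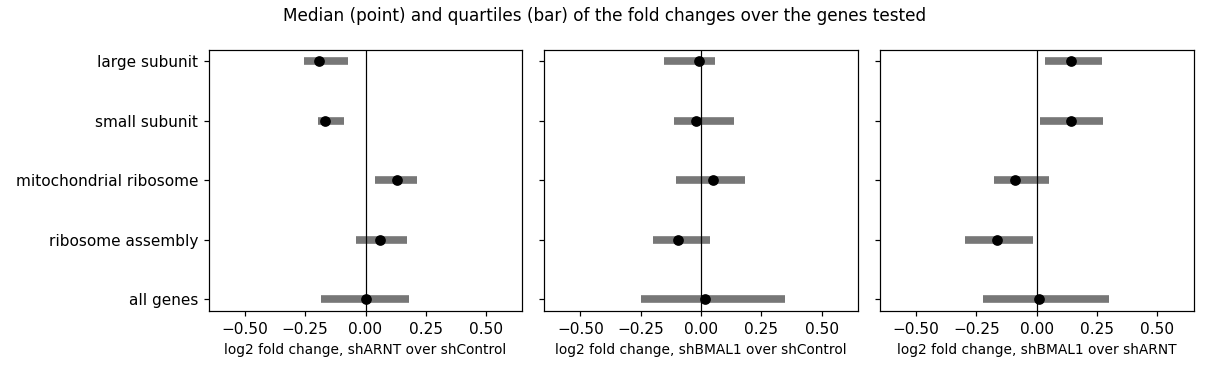
Median (point) and quartiles (bar) of DESeq2 log2 fold changes over the tested genes of the large subunit, the small subunit, the mitochondrial ribosome, ribosome assembly and the whole table, in the 3 comparisons. In shARNT against shControl both cytosolic subunits have medians below 0 (−0.19 and −0.17) and the mitochondrial ribosome has one above 0 (0.13).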

How the data were processed

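Polyadenylated RNA of 9 libraries (3 each of shControl, shARNT and shBMAL1) was sequenced as stranded mRNA libraries. The values were estimated counts (total reads per gene, linear scale) deposited by the authors as 1 table of 38074 rows. Per the study's methods, SeqMan NGen aligned paired reads of 100 bases to GRCh37 and ArrayStar exported the counts, whereas the submitters' processing notes list STAR, DESeq2 and hg38. Which run made the table, its annotation, its strand setting and its treatment of reads that fit several places were not given in the sources used here. Reads that fit a gene and its near copies could be lost or divided. The value 0.009, in 46.3% of cells, stood for 0, and 6.14% of the remaining values were fractional and were rounded. Rows of the same name were added up. No ribosomal protein row was among them. Symbols of 28 rows had become dates.

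Each comparison was fitted across all genes in DESeq2 version 1.42.0 (R 4.3.3) on its 6 libraries with the Wald test and Benjamini-Hochberg adjustment, with genes called at an adjusted p under 0.1, as in the study. Normalised counts are counts divided by size factors over all 9 libraries. Ratios of paralogues were tested by exact permutation. The script was tested on simulated data. Coordinates of genes, coding sequences and 50-base words came from GENCODE v44 lifted to GRCh37, to which all 86 genes matched by name. Starts came from RefSeq (GRCh38.p14). As alternatives the comparisons were refitted with edgeR 4.0.16 (quasi-likelihood test), TMM size factors, no mitochondrial rows, a minimum of 10 counts in 3 libraries, 1 fit of 9 libraries, a replicate block, loess corrections for GC content and length (span 0.3, genes of mean 50 or more), and leaving out each library.

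The members, lists and tests were chosen with earlier results of these data known. Genes named with values are the 6 most lowered and 6 most raised called members of each comparison whose mean normalised count was 50 or more, the paralogues and their main genes, the stalk genes, RPSA, RPL5, RPL11, Diamond-Blackfan genes and ribosomal proteins outside the name rule. Others are marked as chosen after their values were seen. Some of these genes are not reported here, although counts and medians include them. Total counts of 33793043 to 35444731 reads per library limit precision little for genes with many reads.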

Additional observations from a re-analysis of the deposited data

How the results depend on the processing

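The number of ribosomal protein genes lower in shARNT than in shControl was 40 and ran from 38 with a count filter to 48 with edgeR over 8 alternatives, and from 31 to 40 when 1 library was left out. The number higher was 1 in each of these fits. Their median log2 fold change ran from −0.20 to −0.14 without 1 library. In shBMAL1 against shControl, the number higher (6) was 11 with the GC correction and 2 to 12 without 1 library, and the number lower (15) was 24 with the length correction and 12 to 20 without 1 library. The median ran from −0.06 to 0.01, on both sides of 0. In the direct comparison the number lower (7) was 4 to 9 and the number higher (32) 27 to 30 without 1 library. The ratio of large subunit RPM in shBMAL1 to shControl was 0.982 and became 1.02 with mitochondrial genes left out of the library totals, since their share was higher in shBMAL1. No called value of the single genes tested again changed its direction in any alternative run. Of the single genes tested again, 476, 463 and 482 values stayed on their side of the threshold in shARNT, in shBMAL1 and in the direct comparison, 36, 33 and 29 lost their call and 6, 22 and 7 gained one. Shares of all genes called are not given for the alternative fits. Shifts of the ribosomal protein counts therefore cannot be told apart from shifts over all genes. The cause of these changes was not tested.

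Replicate numbers are shared by the groups, but deviations of libraries with the same number had correlations of −0.15 to 0.11 and only 3 of 9 libraries were closest to one of their own number, so the samples share only a number. With the replicate number as a block, 40 genes were lower and 1 was higher in shARNT, 12 and 4 in shBMAL1 and 6 and 31 in the direct comparison. RPL3 was then at −0.23 (adjusted p 0.155) in shARNT. Among the single genes tested again, RPS15 (adjusted p 0.125), RPS6 (0.157) and RPL5 (0.104) also lost their calls in shARNT against shControl. In shBMAL1 against shControl RPL36A (0.102), RPS26 (0.103), RPS12 (0.11) and RPS9 (0.458) lost theirs. In the direct comparison RPL10 (0.13), RPL13A (0.135) and RPL22L1 (0.18) did. Genes with few reads, among them RPL21, RPS28, RPL39 and RPL36A, had wide errors.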
